A study of Oryza sativa with 6 samples.

Results

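Genes for enzymes that branch, debranch and break down starch were followed in rice leaves, as 8 loci chosen by their IDs: the branching enzymes BEI and BEIIa, the debranching enzymes ISA1, ISA3 and PUL (pullulanase), the plastid phosphorylase PHO1, and the alpha-amylases RAmy3D and RAmy3E. Of these 8, 6 have a row among the 19696 rows analysed. RAmy3D (Os08g0473900) and RAmy3E (Os08g0473600), both on chromosome 8 by their IDs, have none in the table used and were not analysed here. The deposited table holds locus IDs only, so the enzyme names are those that came with the list of loci.

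Leaves came from rice (Oryza sativa) plants 3 weeks old that were grown in 1/2MS, a dilute plant culture medium, under conditions the labels call normal. The control group was the genotype ZH11, a japonica variety, with 3 libraries, and the other group was DGP1-OE1, an overexpressor of DGP1, also with 3 libraries. Both genotypes share the label Ck, which is not explained. DGP1-OE1 is the only overexpressor in the series, so an effect of DGP1 and a property of that line cannot be told apart; the transgene's promoter is not stated in the labels. Whether each replicate was its own plant or a pool is not stated, so every p-value below reflects only how these libraries scatter, and that scatter may be technical. The hour of collection is likewise not stated, and the level of DGP1 and of leaf marker genes was not checked, because the deposited rows carry IDs without names.

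Leaves store part of the carbon they fix by day as starch in the chloroplast and use it at night. Branching enzymes cut a glucan chain and rejoin the piece as a side branch, and this gives amylopectin its branched form. Debranching enzymes remove branches, either to trim amylopectin while it is made or to open it for breakdown. Phosphorylase takes glucose units off, or adds them to, the outer ends of chains, and amylases cut the chains themselves. RAmy3D is known in rice as an amylase gene that sugar starvation switches on. In bulk leaf samples, fewer cells of a type and less RNA per cell cannot be told apart.

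No difference between the overexpressor and the wild type was detected in this gene group. Of the 8 loci, 5 reached 1 FPKM in at least 3 of the 6 libraries and were tested; FPKM is the number of fragments relative to transcript length and to the library's mapped total, and the depth behind it is unknown. By limma on log2(FPKM + 1), adjusted over all 18270 tested rows, 0 of the 5 were called at an adjusted p under 0.05, and 0 had an unadjusted p under 0.05. Over all tested rows 0.356% were called in either direction (0.159% higher and 0.197% lower in DGP1-OE1), and 8.8% had an unadjusted p under 0.05. The groups of libraries overlapped in all 5 loci, whereas 13.9% of tested rows had groups that did not overlap. So 0 of 5 does not set these loci apart from the other rows. The 5 differences had a median of -0.01 on the log2 scale, beside -0.01 over all tested rows, and a median size of 0.13, beside 0.25.

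**Figure D1:**
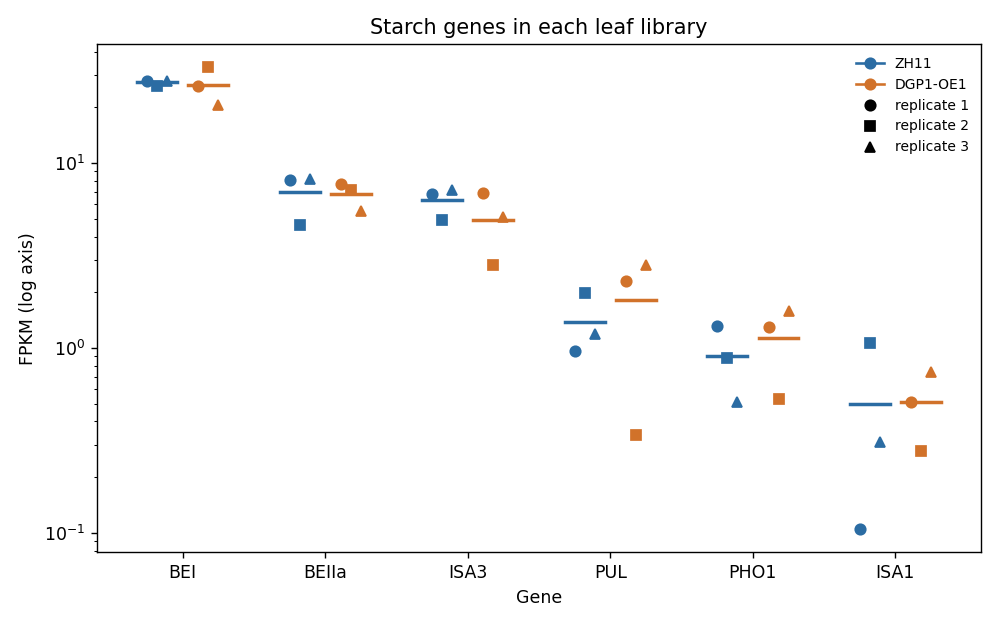
FPKM (log axis) of the 6 listed starch genes in each library; colours are genotypes, symbols are replicates and bars are group means of 3 libraries. BEI stands above 20 FPKM in every library, BEIIa and ISA3 lie between 2.82 and 8.17 FPKM, and the groups overlap for each gene.

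BEI (Os06g0726400, chromosome 6), a branching enzyme, was the most abundant of the 6 genes in every library. The wild-type libraries read 27.9, 26.1 and 27.9 FPKM, and the overexpressor libraries 25.96, 32.9 and 20.6 FPKM, both in the order of replicates 1, 2 and 3 that is kept below. Wild-type libraries lay close together, and the overexpressor libraries lay both above and below them. The wild-type mean was 27.3 ± 1.02 FPKM and the overexpressor mean 26.5 ± 6.2 FPKM (SD, n = 3 each, here and below). The log2 difference was -0.07 with an SE of 0.23 and a 95% interval of -0.56 to 0.43 (limma, adjusted p = 0.966). BEI was the best bounded of the 5 tested genes: its interval was the narrowest.

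BEIIa (Os04g0409200, chromosome 4), the branching enzyme isoform known to be expressed in rice leaves as well as seeds, read 8.12, 4.63 and 8.17 FPKM in the wild type and 7.67, 7.16 and 5.49 FPKM in the overexpressor. The lowest library was ZH11 replicate 2, and the others lay between 5.49 and 8.17 FPKM in both genotypes. The means were 6.97 ± 2.03 FPKM and 6.77 ± 1.14 FPKM. The log2 difference was -0.01 with an SE of 0.31 and a 95% interval of -0.69 to 0.67 (limma, adjusted p = 0.996). On the FPKM scale, which is per length and so allows levels of different genes to be set side by side, BEI exceeded BEIIa in every library. The ratio of BEI to BEIIa was 3.44, 5.64 and 3.41 in the wild type and 3.39, 4.602 and 3.75 in the overexpressor. Its highest value, in ZH11 replicate 2, went with the low BEIIa of that library.

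ISA3 (Os09g0469400, chromosome 9), an isoamylase known to act in starch breakdown in leaf plastids, was the most abundant debranching enzyme gene in all 6 libraries. Wild-type values were 6.83, 4.91 and 7.12 FPKM, and overexpressor values were 6.84, 2.82 and 5.12 FPKM. DGP1-OE1 replicate 2 was the lowest library, and the other two of that genotype lay within the range of ZH11. The means were 6.28 ± 1.20 FPKM and 4.93 ± 2.02 FPKM. ISA3 had the largest estimated difference of the 5, -0.35 on the log2 scale with an SE of 0.34 and a 95% interval of -1.10 to 0.41 (limma, adjusted p = 0.854). A difference of this size or more was seen in 36.9% of all tested rows. Without DGP1-OE1 replicate 2 the log2 difference was -0.06.

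ISA1 (Os08g0520900, chromosome 8), the isoamylase known for trimming amylopectin in rice endosperm, had the lowest mean of the 6 genes in both genotypes. The wild type gave 0.105, 1.07 and 0.309 FPKM and the overexpressor 0.507, 0.277 and 0.744 FPKM. All overexpressor libraries lay inside the range of the wild type, which spanned 10.2-fold. It reached 1 FPKM in 1 library, failed the filter on low values and was compared by itself. The means were 0.494 ± 0.508 FPKM and 0.509 ± 0.233 FPKM, and the log2 difference was 0.06 (two-sided p = 1 by an exact permutation test, where 3 against 3 libraries cannot go below 0.1).

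PUL (Os04g0164900, chromosome 4), the pullulanase that removes branches from short glucans, varied most among the tested members. Its values were 0.958, 1.98 and 1.18 FPKM in the wild type against 2.31, 0.337 and 2.80 FPKM in the overexpressor. In the overexpressor, replicates 1 and 3 lay above every wild-type library and replicate 2 lay below every one. The means were 1.38 ± 0.539 FPKM and 1.82 ± 1.31 FPKM. The log2 difference was 0.13 with an SE of 0.46 and a 95% interval of -0.88 to 1.15 (limma, adjusted p = 0.966). The spread of PUL within genotypes, a residual SD of 0.62 log2 units, was larger than that of 84.7% of tested rows. Leaving out DGP1-OE1 replicate 2 moved the fold of the means, overexpressor over wild type, from 1.32 to 1.86, and the log2 difference to 0.60 (limma, adjusted p = 0.755). Leaving out DGP1-OE1 replicate 3 turned it to -0.15.

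PHO1 (Os03g0758100, chromosome 3), the plastid phosphorylase, was also low. Wild-type libraries had 1.32, 0.887 and 0.511 FPKM, and overexpressor libraries 1.297, 0.526 and 1.59 FPKM. Both genotypes ran from about the same low value, and the highest library was DGP1-OE1 replicate 3. The means were 0.905 ± 0.404 FPKM and 1.14 ± 0.549 FPKM. The log2 difference was 0.15 with an SE of 0.40 and a 95% interval of -0.73 to 1.03 (limma, adjusted p = 0.954). PHO1 reached 1 FPKM in 3 libraries, the fewest that the filter allowed.

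**Figure D2:**
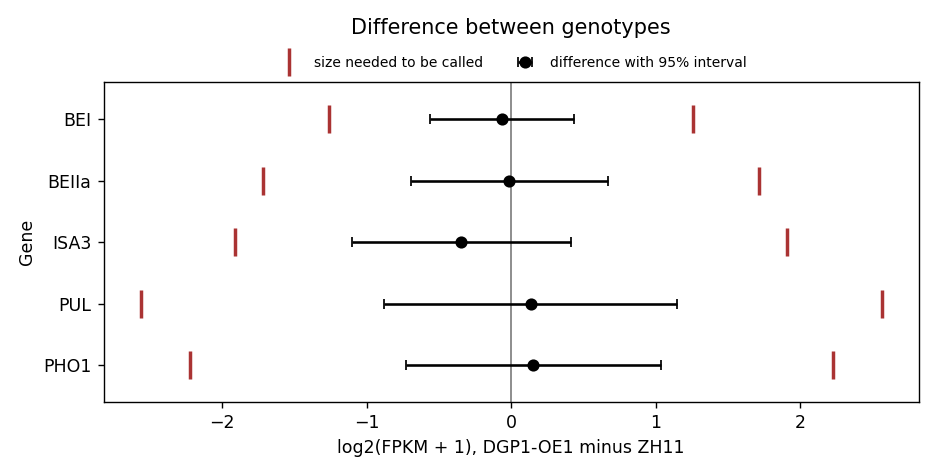
Difference between genotypes on the log2(FPKM + 1) scale, DGP1-OE1 minus ZH11, for the 5 tested starch genes. Points are estimates and bars are 95% intervals of the limma fit. Red ticks mark the size an estimate needed to be called given each gene's SE. All 5 intervals include 0, and the ticks lie between 1.26 (BEI) and 2.56 (PUL) log2 units.

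How large a difference could have gone unseen varied between the genes. The weakest call among all tested rows had an unadjusted limma p of 0.000173. Given that limit and its SE, BEI would have needed an estimated log2 difference of 1.26 to be called. The size needed was 1.71 for BEIIa, 1.91 for ISA3, 2.23 for PHO1 and 2.56 for PUL. These are sizes of the estimate, so a true difference as large or somewhat larger could also have been missed. For the low genes PUL and PHO1 the 95% intervals include differences of about 1 log2 unit in the upward direction, and for ISA3 in the downward direction. The intervals of PUL and PHO1 also reach down to -0.88 and -0.73. Adding 1 FPKM to each value also draws low values together, and the estimates of low genes depend on this choice. With 0.1 FPKM added instead, the log2 difference rose from 0.15 to 0.26 for PHO1 and from 0.06 to 0.33 for ISA1. For PUL it fell from 0.13 to 0.04.

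The order of levels was much alike in the 6 libraries. In ZH11 the means ran from BEI over BEIIa, ISA3, PUL and PHO1 to ISA1, and in DGP1-OE1 the order of the means was the same. BEI stood apart from the rest in every library, between percentiles 76.4 and 82.3 of all rows. BEIIa and ISA3 overlapped in both genotypes, between percentiles 35.9 and 53.1 for BEIIa and 26.5 and 49 for ISA3, and ISA3 exceeded BEIIa in ZH11 replicate 2. PUL, PHO1 and ISA1 overlapped as neighbours in both genotypes, and their order changed between libraries. PUL lay between percentiles 3.16 and 30.4, PHO1 between 5.13 and 19.9, and ISA1 between 2.35 and 11.2.

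Shares within the group did not separate the genotypes either. BEI made up 63.1% ± 2.45 of the summed FPKM of the 6 genes in ZH11 and 63.2% ± 10.04 in DGP1-OE1. The sum itself was 43.3 ± 3.23 FPKM and 41.7 ± 4.63 FPKM. Among the debranching enzyme genes, ISA3 made up 76.95% ± 13.4 of the FPKM of ISA1, ISA3 and PUL together in ZH11 and 70.7% ± 11.5 in DGP1-OE1. These ranges overlapped, from 61.7% to 86.5% in the wild type and from 59.1% to 82.1% in the overexpressor. The summed debranching FPKM was 7.89, 7.96 and 8.61 in the wild type and 9.66, 3.43 and 8.67 in the overexpressor, so replicate 2 of the overexpressor had the lowest sum.

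**Figure D3:**
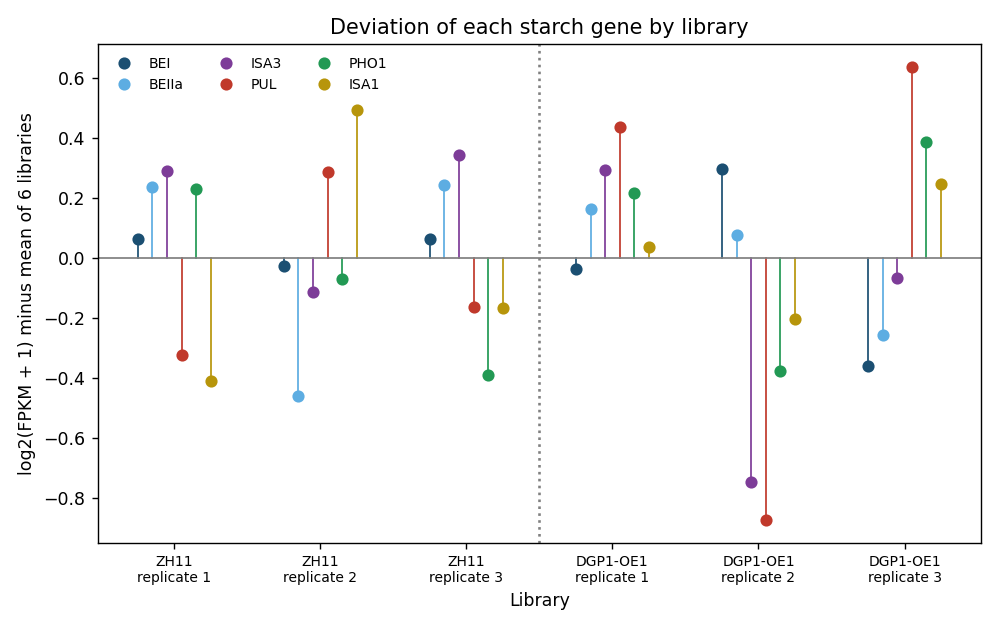
Deviation of each of the 6 starch genes from its mean over 6 libraries, on the log2(FPKM + 1) scale, in each library; colours are genes and the dotted line divides the genotypes. In DGP1-OE1 replicate 2 the genes ISA1, ISA3, PUL and PHO1 lie below 0 while BEI lies above it.

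For each of the 6 genes, libraries of at least 1 genotype differed from each other by more than the group means did. DGP1-OE1 replicate 2 was the lowest overexpressor library for ISA1, ISA3, PUL and PHO1, that is, for all 3 debranching enzyme genes and the phosphorylase. It was at the same time the highest overexpressor library for BEI. Over all tested rows, DGP1-OE1 replicate 2 was the lowest of the overexpressor libraries in 24.5% and replicate 3 in 50.6%. Deviations from the 6-library mean in DGP1-OE1 replicate 2 were -0.87 log2 units for PUL, -0.75 for ISA3 and -0.37 for PHO1. They were -0.20 for ISA1, 0.08 for BEIIa and 0.30 for BEI. PUL and ISA3 had their lowest value of all 6 libraries there. Wild-type libraries went lower for ISA1 (-0.41 in ZH11 replicate 1) and PHO1 (-0.39 in ZH11 replicate 3). Within ZH11, the library lowest for the most genes was replicate 2, with 3 of the 6 (BEI, BEIIa and ISA3). Within DGP1-OE1, replicate 2 was lowest for 4. The share over all tested rows was not computed for ZH11. In DGP1-OE1 replicate 2, ISA1, PUL and PHO1 lay below 1 FPKM, at 0.277, 0.337 and 0.526. The contrast between genes in that library was noticed after the values were seen, and its relation to library quality was not tested.

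Across the 6 libraries PUL and BEI ran opposite ways. Pearson's r of log2(FPKM + 1) was -0.91 between them, over 6 libraries of 2 genotypes. It was the largest r in size among the pairs of tested members. How often other pairs of rows reach such an r was not examined. The r is a description, and all values of a library share its FPKM scaling. PHO1 was also opposite to BEI (r = -0.76) and ran with PUL (r = 0.69). The remaining pairs of tested members had r between -0.50 and 0.49. Without DGP1-OE1 replicate 2 these values were -0.82 for PUL with BEI, -0.62 for PHO1 with BEI and 0.49 for PUL with PHO1. Several pairs turned on that library: BEIIa and ISA3 went from 0.35 to 0.98 without it, ISA3 and PUL from 0.48 to -0.64, and BEI and ISA3 from -0.37 to 0.65. The tested rows most like ISA3, the member with the largest estimated difference, were Os02g0208500 (r = 0.993) and Os09g0554300 (r = 0.990), the closest of all the tested rows over the 6 libraries. Both were picked as the highest r among 18270 rows over only 6 libraries. A high r was therefore fixed by the choice and is no finding, nor is any likeness in the order of libraries. Without DGP1-OE1 replicate 2 their r with ISA3 was 0.970 and 0.963. Os02g0208500 read 38.4, 16.4 and 63.7 FPKM in the wild type and 52.1, 1.75 and 19.9 FPKM in the overexpressor. Os09g0554300 read 36.1, 20.2 and 36.1 FPKM in the wild type and 30.5, 10.7 and 23.4 FPKM in the overexpressor. Neither was called (limma, adjusted p = 0.74 and 0.727).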

How the data were processed

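The authors deposited FPKM for 6 leaf libraries, 3 per genotype. HISAT2 2.0, StringTie 1.3.0 and Bowtie 0.12.2 are named in the submitters' processing notes without role or order. These notes also name mm8, a mouse build, and the rice assembly and gene models behind the table are not given in the sources. The deposited FPKM summed to 686327 to 752617 per library over 19696 rows, with medians of 6.69 to 8.29 FPKM, and the lowest row maximum was 0.169 FPKM. Depth is unknown, so no counting interval is given. Columns named DGP1-OE were taken as DGP1-OE1 by replicate number.

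Rows with at least 1 FPKM in at least 3 of 6 libraries (18270) were fitted on log2(FPKM + 1) with limma 3.58.1 (R 4.3.3), with an intensity trend, two-sided, with Benjamini-Hochberg adjustment over all tested rows and a threshold of 0.05. The code was tested on simulated data. ISA1, below the filter, was compared by an exact permutation test. The loci, lists and tests were chosen with earlier results of these data known. All 8 loci were to be named, with 2 rows for likeness of pattern. Chromosomes were read from the IDs. A list of other starch genes, tissue markers and sequences were to be taken through a RefSeq gene table; 0 of the table's IDs matched it, so none is reported. Alternatives were another pseudocount, filter, scaling or moderation, the replicate number as a block, and leaving out each library.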

Additional observations from a re-analysis of the deposited data

How the results depend on the processing

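None of the tested starch genes was called under any setting run: 0 higher and 0 lower with a pseudocount of 0.1, without a filter, with a filter at 5 FPKM (which left out PUL and PHO1), with equal totals, median-of-ratios or quantile scaling, without an intensity trend, with robust moderation, with the replicate number as a block, and without each library. Estimates near 0 changed sign. BEIIa was at 0.031 with quantile normalization. Leaving out each library in turn gave log2 differences from -0.23 to 0.10 for BEI, -0.25 to 0.11 for BEIIa, -0.58 to -0.06 for ISA3, -0.15 to 0.60 for PUL, -0.0040 to 0.38 for PHO1 and -0.14 to 0.32 for ISA1. The cause of these shifts was not tested. With the replicate block ISA3 had an adjusted p of 0.729 (limma). Same-numbered libraries deviated from their group means with correlations of 0.02, 0.38 and 0.14. Libraries of different number gave -0.28 to 0.21. The labels do not pair libraries, so same-numbered ones were not taken as pairs, and whether the number marks a batch was not tested. The block raised the calls over all rows from 29 higher and 36 lower to 130 and 139. Leaving out each library gave 16 to 39 and 9 to 42 calls. Calls of lower rows numbered 21 at the smaller pseudocount and 14 with no trend. With depth unknown, low values such as those of ISA1 cannot be given a counting error. The settings for the list of other starch genes were not run, because that list could not be filled.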
